A study of Homo sapiens with 9 samples.

Results

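Prostaglandin and leukotriene synthesis genes together with annexin A1 were followed in THP-1 cells given lupeol, a plant triterpene, or its solvent. The set comprised 10 of the 67928 genes in the deposited count table: PLA2G4A, PTGS1, PTGS2, PTGES, PTGES2, PTGES3, ALOX5, ALOX5AP, LTA4H and ANXA1, each taken as the main-chromosome entry of its Ensembl ID. The set was chosen by pathway and with the lupeol 80 and control levels of PTGS2 and ANXA1 already known. For these 2 genes, fold changes that involve the lupeol 80 libraries are therefore a description, with no p-value given. A low-count filter kept 9 of the 10 genes and left out PTGES.

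THP-1 is a human suspension line from an acute monocytic leukaemia, and all 9 libraries came from this 1 line with no other genetic change or agent named in the labels. Bulk RNA-seq was made after 48 h in 3 groups of 3 libraries: lupeol at 80 µmol/L (lupeol 80), lupeol at 50 µmol/L (lupeol 50) and the lupeol solvent (control). In 1 label of the 50 µmol/L group the unit is written without its micro sign; the library's description placed it in the group. Libraries are numbered 1 to 3 in each lupeol group and named 1, A and B among the controls, because 2 control columns share a heading. The labels do not state whether libraries of a group were separate cultures. The p-values therefore reflect library-to-library spread alone, possibly technical.

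The libraries held 26134744 to 38430299 counts, and lupeol 80 library 1 was the deepest. Control B lay nearer in its counts to lupeol 50 library 1 (chi-square per degree of freedom 6.12) than to control 1 (14.9) or control A (18.3), and the lupeol 80 libraries differed among themselves by 19.1 to 41.4 on the same scale. All 9 monocytic markers were detected, although CD68 stayed at 0.0747 to 0.456 CPM (counts scaled to library size). Their summed level was 1061 to 1154 CPM in lupeol 80, 1148 to 1218 CPM in lupeol 50 and 1273 to 1366 CPM in control libraries, so the lupeol 80 and control ranges did not overlap. Erythroid and epithelial markers were at 0 in every library, and CD3E, MS4A1, PF4, PPBP, TPSAB1 and CPA3 were also at 0. The summed T cell, B cell, platelet, mast cell and fibroblast markers reached at most 3.81 CPM in any library, and the B cell sum was 1.66 to 2.02 CPM in lupeol 80 against 3.27 to 3.81 CPM in control libraries. In bulk RNA, fewer cells of a type and less RNA per cell cannot be told apart, and the part of these marker differences in the results below was not tested.

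Eicosanoids are made from arachidonic acid, which cytosolic phospholipase A2 releases from membrane phospholipids. Cyclooxygenases turn it into prostaglandin H2, from which prostaglandin E synthases make prostaglandin E2, while 5-lipoxygenase and its activating protein turn it into leukotriene A4 for conversion to leukotriene B4. Monocytes use both branches in inflammation. Annexin A1 is a calcium-dependent phospholipid-binding protein, known as a glucocorticoid-inducible inhibitor of phospholipase A2 activity and a ligand of the formyl peptide receptor FPR2.

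The upstream sequences of PTGS2 and ANXA1 are shown because the results turn on these 2 genes. Each is the 250 bases before the RefSeq gene start on GRCh38.p14, written 5′ to 3′ on the gene's strand. Capitals mark matches to any of 8 motifs searched on both strands.
PTGS2 (chr1:186680424-186680673, minus strand): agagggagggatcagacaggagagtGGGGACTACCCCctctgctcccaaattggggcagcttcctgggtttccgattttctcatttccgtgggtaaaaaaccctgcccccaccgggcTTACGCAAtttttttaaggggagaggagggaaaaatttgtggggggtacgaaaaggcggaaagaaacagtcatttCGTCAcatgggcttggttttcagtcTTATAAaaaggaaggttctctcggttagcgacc
ANXA1 (chr9:73151615-73151864, plus strand): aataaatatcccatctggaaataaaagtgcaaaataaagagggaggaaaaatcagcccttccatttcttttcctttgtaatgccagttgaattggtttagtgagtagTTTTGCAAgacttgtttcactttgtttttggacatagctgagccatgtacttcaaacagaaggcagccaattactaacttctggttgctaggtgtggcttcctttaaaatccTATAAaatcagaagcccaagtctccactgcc

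Both windows held the TATA box letters TATAA at a similar place, at -33 to -28 in PTGS2 (overlapping matches on the 2 strands) and at -31 to -27 in ANXA1, counting back from -1 at the base before the start. TATAA occurred in 18.9% of the 35116 promoter windows of the table, and between -40 and -20 in 4.55%. Both windows also held the C/EBP letters TTNNGNAA, at -133 to -126 in PTGS2 and at -143 to -136 in ANXA1, as did 33.2% of all windows; 9.53% held both motifs. The PTGS2 window alone of the pair held the cyclic AMP response element core TGACG, on the reverse strand at -58 to -54 (21.2% of all windows), and overlapping NF-kB matches at -225 to -214. The NF-kB motif was searched as 3 G, any 5 bases and 2 C, which 54.4% of all windows held. Neither window held the AP-1 letters TGANTCA (6.57% of all windows), the E-box CACGTG (6.34%), the GC box GGGCGG (42.6%) or the glucocorticoid element (1.99%), searched as ACA, any 3 bases, TGT, any base and C. The GC content was 50.4% in the PTGS2 window and 38.4% in the ANXA1 window, against a median of 58% over all windows. A match describes letters and not a bound site. RefSeq promoter entries matched 9 of the 10 genes, the exception being ALOX5, and the PLA2G4A and ALOX5AP windows held none of the 8 motifs.

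Levels are CPM scaled by the trimmed mean of M values (TMM). Lupeol 80 against control had 2 of the 9 tested genes past an adjusted p of 0.05 in edgeR's quasi-likelihood test, PTGS2 and ANXA1. Of all 17568 tested genes, 1.14% passed. The choice of these 2 genes used this contrast, so nothing is read from the count or from their passing. The count was 0 without control 1 and 0 without control A, fits in which 0 and 1 genes of the whole table were called. At an unadjusted p under 0.05 the count was 3 of 9, beside 19.5% of all genes. For 3 of the 9 genes, PTGS2, PTGES3 and ANXA1, every lupeol 80 library lay above every control library, beside 11% of all genes. Both of these counts include PTGS2 and ANXA1, chosen with these levels known, so nothing is read from either count. Lupeol 50 against control had 0 of 9 genes past the adjusted threshold, as in the whole table (0%), with 0 also by DESeq2 and by limma-voom, and 1 of 9 (PTGS2) at an unadjusted p under 0.05, beside 12.4% of all genes. PTGS2 was also the 1 gene whose lupeol 50 libraries all lay above the controls (9.55% of all genes). Because PTGS2 control levels were known at the choice, nothing is read from these 2 results. Lupeol 80 against lupeol 50 had 0 of 9 genes called by edgeR (0.0455% of all genes). DESeq2 called 2 of the 9 and 410 genes of the whole table, and limma-voom called 0 and 2. By edgeR, 4 of 9 had an unadjusted p under 0.05 (15.4% of all genes). In that contrast PTGS2, PTGES3, ALOX5 and ANXA1 lay wholly above lupeol 50 (9.42% of all genes). The test of any difference among the 3 groups called 2 of 9 (0.233% of all genes). Both lupeol 80 against lupeol 50 and this test include lupeol 80 libraries whose PTGS2 and ANXA1 levels were known, and nothing is read from their counts. The 3 contrasts share libraries, so they are not independent of each other. The median log2 fold change of the 9 genes was 0.17, 0.04 and 0.20 in lupeol 80 against control, lupeol 50 against control and lupeol 80 against lupeol 50, beside 0.01, -0.0033 and -5e-04 over all tested genes. These medians include PTGS2 and ANXA1, chosen with their levels known, so nothing is read from them.

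**Figure D1:**
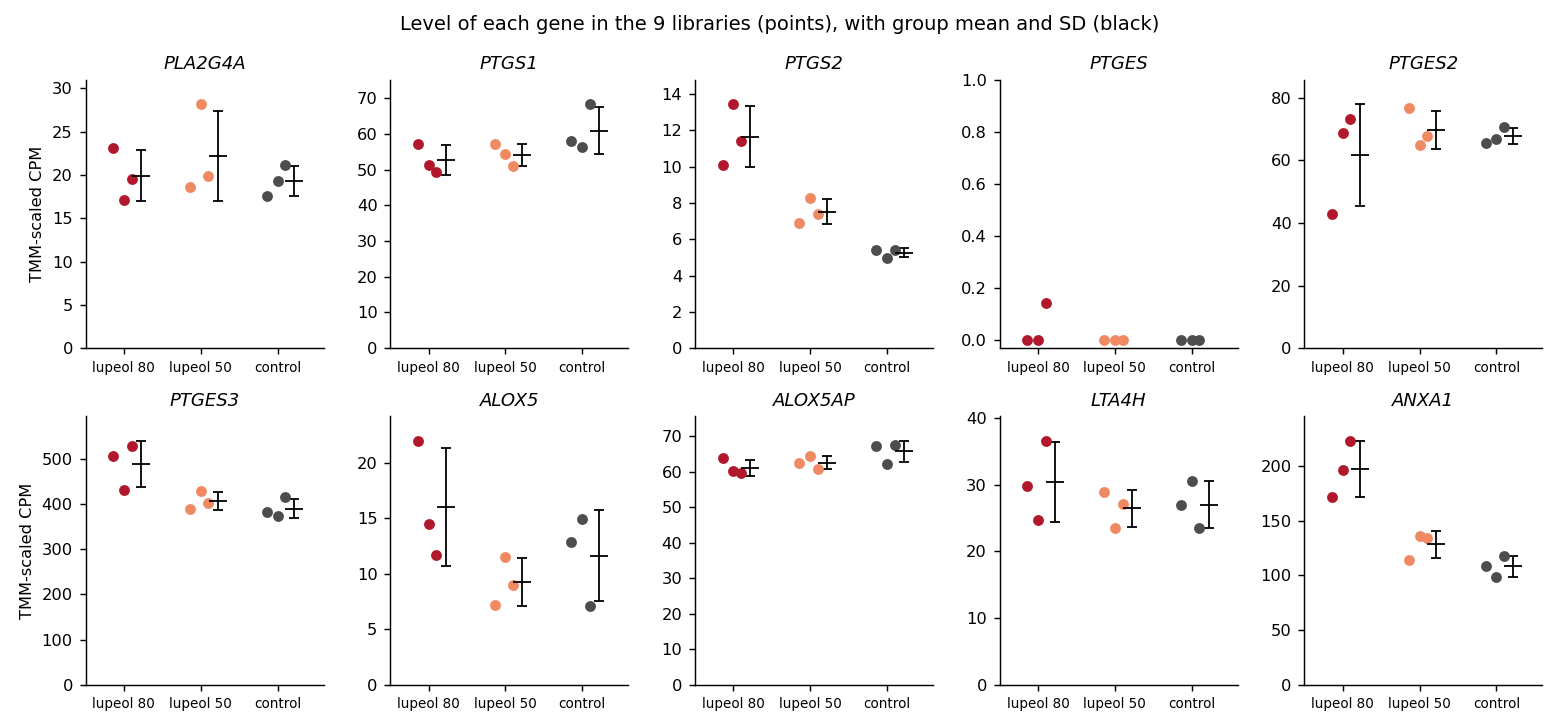
TMM-scaled CPM (vertical axes, each from about 0 with its own scale) of the 10 genes in every library. Points are libraries, coloured by lupeol 80, lupeol 50 and control, and black marks are the group mean ± SD (none for PTGES); PTGS2 lies at 10.1 to 13.45 CPM in lupeol 80 and at 4.96 to 5.42 CPM in control libraries.

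The plot of levels by library shows 3 kinds of pattern: PTGS2 stepped by group, ANXA1 and PTGES3 with lupeol 80 above the rest, and the remaining genes with overlapping groups.

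Arachidonate release was represented by PLA2G4A, the gene of cytosolic phospholipase A2 alpha (chr1:186828949-186988981, plus strand), which lies 148 kb from PTGS2. It stood at 23.1, 17.2 and 19.5 CPM in lupeol 80 libraries, 18.6, 28.2 and 19.9 CPM in lupeol 50 libraries and 17.6, 19.3 and 21.1 CPM in control libraries. The groups overlapped, and lupeol 50 library 2 was the highest of the 9. The log2 fold change was 0.04 ± 0.17 (SE) for lupeol 80 against control (edgeR adjusted p = 0.916) and 0.20 ± 0.17 for lupeol 50 against control (edgeR adjusted p = 0.669).

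Of the cyclooxygenase genes, PTGS2 had groups that did not overlap and PTGS1 had overlapping ones. PTGS2 encodes the inducible cyclooxygenase-2 (chr1:186671791-186680922, minus strand). It stood at 10.1, 13.45 and 11.4 CPM in lupeol 80 libraries, from 397, 412 and 322 raw counts. It stood at 6.91, 8.29 and 7.38 CPM in lupeol 50 libraries, from 201, 223 and 199 counts. It stood at 5.399, 4.96 and 5.42 CPM in control libraries, from 142, 144 and 145 counts. The 3 groups did not overlap at all, and the lupeol 50 libraries lay between the other groups. The log2 difference of lupeol 80 from control was 1.15 ± 0.18 (SE), a fold of 2.21. Between the doses it was 0.63 ± 0.18, a fold of 1.55. Lupeol 50 against control gave 0.52 ± 0.18, a fold of 1.43 (edgeR unadjusted p = 0.0118, adjusted p = 0.288). It did not pass the adjusted threshold, although the 3 lupeol 50 libraries lay above the 3 controls. The control levels of PTGS2 were known at the choice, so this contrast is not independent of it and nothing is read from its p-values. The antisense gene PACERR shares 219 exon bases with PTGS2 and held at most 7 counts in any library; without strand information, reads from the shared bases cannot be told apart.

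PTGS1, the constitutive cyclooxygenase-1 gene (chr9:122370530-122395703, plus strand), stood at 57.3, 51.3 and 49.4 CPM in lupeol 80 libraries, 57.2, 54.2 and 50.9 CPM in lupeol 50 libraries and 58.1, 56.3 and 68.3 CPM in control libraries. Control B was the highest and the groups overlapped. The log2 fold change was -0.21 ± 0.12 (SE) for lupeol 80 against control (edgeR adjusted p = 0.35) and -0.17 ± 0.12 for lupeol 50 against control (edgeR adjusted p = 0.59).

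The balance of the pair was taken per length, as RPKM (CPM divided by gene length). PTGS1 RPKM over PTGS2 RPKM was 5.37, 3.62 and 4.12 in lupeol 80 libraries, 7.85, 6.20 and 6.54 in lupeol 50 libraries and 10.2, 10.75 and 11.9 in control libraries. The group values were 4.37 ± 0.905, 6.86 ± 0.872 and 10.97 ± 0.895 in that sequence of groups (SD, n = 3 each), with no overlap. PTGS1 thus remained the more abundant message in all 9 libraries. The ratio uses the PTGS2 values that the choice of genes used and is given without a test.

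**Figure D2:**
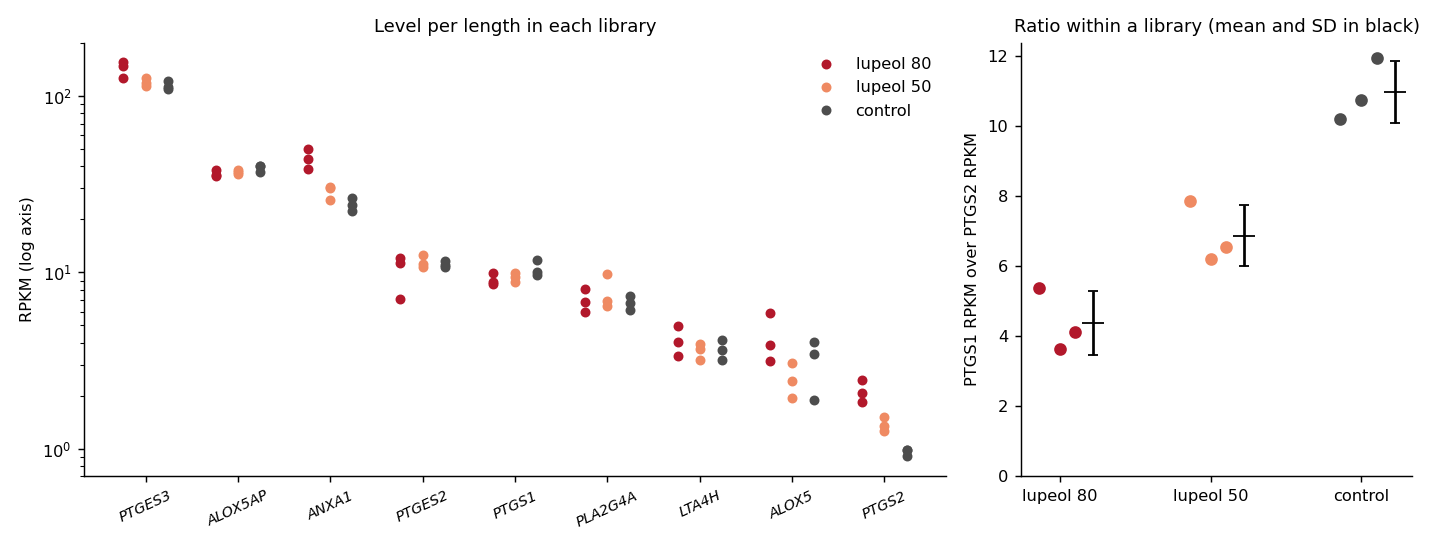
Left, RPKM of each gene in every library on a log axis, coloured by group. Right, PTGS1 RPKM over PTGS2 RPKM per library with the group mean and SD in black; the lupeol 80 ratios lie at 3.62 to 5.37 and the control ratios at 10.2 to 11.9.

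The plot of levels per length orders the genes. In control libraries the mean RPKM was 114.8 for PTGES3, 39.1 for ALOX5AP and 24.3 for ANXA1, then 11.1 for PTGES2, 10.5 for PTGS1 and 6.71 for PLA2G4A, and lastly 3.65 for LTA4H, 3.12 for ALOX5 and 0.959 for PTGS2, with PTGES at 0. Neighbours in that order had separate library ranges except PTGES2 with PTGS1 and LTA4H with ALOX5. The order depends on the deposited lengths, such as 7405 bases for LTA4H and 2879 for PLA2G4A. By mean CPM in control libraries, LTA4H (27.0) lay above PLA2G4A (19.3). In lupeol 80 libraries ANXA1 was second, its lowest library at 38.5 RPKM against a highest ALOX5AP library of 37.9 RPKM, and ALOX5 stood above LTA4H with overlapping libraries. PTGS2 was the lowest of the 9 tested genes in every group, at 2.12 ± 0.308, 1.37 ± 0.128 and 0.959 ± 0.0467 RPKM in lupeol 80, lupeol 50 and control libraries (SD, n = 3 each).

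Prostaglandin E synthase genes ranged from near absence to very high levels. PTGES, the inducible microsomal synthase 1 (chr9:129738331-129753042, minus strand), had 4 counts in lupeol 80 library 3 and 0 in the other 8 libraries. A count of 0 allows up to 3 counts, which is 0.0764 to 0.114 CPM over those libraries and covers counting error only. No fold is given.

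PTGES2, the microsomal synthase 2 gene (chr9:128120693-128128462, minus strand), stood at 43.0, 68.7 and 73.2 CPM in lupeol 80 libraries, 76.6, 64.9 and 67.9 CPM in lupeol 50 libraries and 65.6, 67.0 and 70.7 CPM in control libraries. Lupeol 80 library 1 was the lowest of the 9, and the other libraries overlapped. Lupeol 80 against control gave -0.14 ± 0.16 on the log2 scale (SE; edgeR adjusted p = 0.673).

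PTGES3 encodes p23, the cytosolic prostaglandin E synthase that is also a co-chaperone of HSP90 (chr12:56663341-56688408, minus strand). It stood at 506.1, 430.8 and 529.1 CPM in lupeol 80 libraries, 389.5, 429.1 and 403.0 CPM in lupeol 50 libraries and 382.2, 373.6 and 414.9 CPM in control libraries. Every lupeol 80 library lay above every other library, by a narrow margin for library 2, while lupeol 50 and control overlapped. The log2 fold change was 0.32 ± 0.11 (SE) for lupeol 80 against control (edgeR adjusted p = 0.132), 0.06 ± 0.11 for lupeol 50 against control (edgeR adjusted p = 0.864) and 0.26 ± 0.11 for lupeol 80 against lupeol 50 (edgeR adjusted p = 0.282). None passed the threshold. The processed copies PTGES3P1 to PTGES3P5 held at most 17 counts in any library; the treatment of multiply aligned reads is not stated, so a split of reads with PTGES3 is uncertain.

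Leukotriene synthesis genes did not pass the test in any contrast. ALOX5, the 5-lipoxygenase gene (chr10:45374176-45446119, plus strand), stood at 21.9, 14.4 and 11.7 CPM in lupeol 80 libraries, 7.18, 11.5 and 9.01 CPM in lupeol 50 libraries and 12.8, 14.9 and 7.06 CPM in control libraries. Lupeol 80 lay above lupeol 50 by a small margin, and the control libraries spread across both. The log2 fold change was 0.47 ± 0.29 (SE) for lupeol 80 against control (edgeR adjusted p = 0.4), -0.33 ± 0.29 for lupeol 50 against control (edgeR adjusted p = 0.688) and 0.80 ± 0.29 for lupeol 80 against lupeol 50 (edgeR adjusted p = 0.242). Its coefficient of variation, 33.2% in lupeol 80, 23.4% in lupeol 50 and 35.1% in control libraries, was above that of every other tested gene of the set in each group, and leaving out single libraries moved the first of these log2 values to between 0.17 (without lupeol 80 library 1) and 0.69 (without control A). Without both lupeol 80 library 1 and control B it was -0.09. A gene on the opposite strand within ALOX5, ENSG00000231964, shares no exon base with it.

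ALOX5AP encodes the 5-lipoxygenase-activating protein (chr13:30713478-30764426, plus strand). It stood at 63.7, 60.05 and 59.5 CPM in lupeol 80 libraries, 62.4, 64.4 and 60.8 CPM in lupeol 50 libraries and 67.3, 62.3 and 67.5 CPM in control libraries. Its coefficient of variation was the lowest of the tested genes in both lupeol groups, at 3.74% in lupeol 80 and 2.89% in lupeol 50, and the groups overlapped. Lupeol 80 against control gave a log2 fold change of -0.10 ± 0.11 (SE; edgeR adjusted p = 0.632).

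LTA4H, the leukotriene A4 hydrolase that makes leukotriene B4 (chr12:96000753-96043520, minus strand), stood at 29.9, 24.7 and 36.6 CPM in lupeol 80 libraries, 28.9, 23.5 and 27.1 CPM in lupeol 50 libraries and 26.9, 30.5 and 23.5 CPM in control libraries. The groups overlapped, with lupeol 80 library 3 the highest. For lupeol 80 against control it was 0.17 ± 0.16 on the log2 scale (SE; edgeR adjusted p = 0.584). The antisense gene ENSG00000257878 shares 803 exon bases with LTA4H and held at most 5 counts.

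ANXA1, the annexin A1 gene (chr9:73151865-73170393, plus strand), stood at 171.6, 196.6 and 222.9 CPM in lupeol 80 libraries, 114.4, 136.4 and 134.2 CPM in lupeol 50 libraries and 108.2, 98.8 and 117.9 CPM in control libraries. Lupeol 80 lay apart from both other groups, while lupeol 50 library 1 fell below control B. The log2 difference of lupeol 80 from control was 0.86 ± 0.12 (SE), a fold of 1.82. Lupeol 50 against control gave 0.25 ± 0.12, a fold of 1.18 (edgeR adjusted p = 0.435) and did not pass. The ANXA1 control levels in that contrast were also known at the choice. Lupeol 80 against lupeol 50 gave 0.62 ± 0.12, a fold of 1.53. The overlap of lupeol 50 with control came from that 1 pair of libraries, and every lupeol 50 library lay above control 1 and control A.

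**Figure D3:**
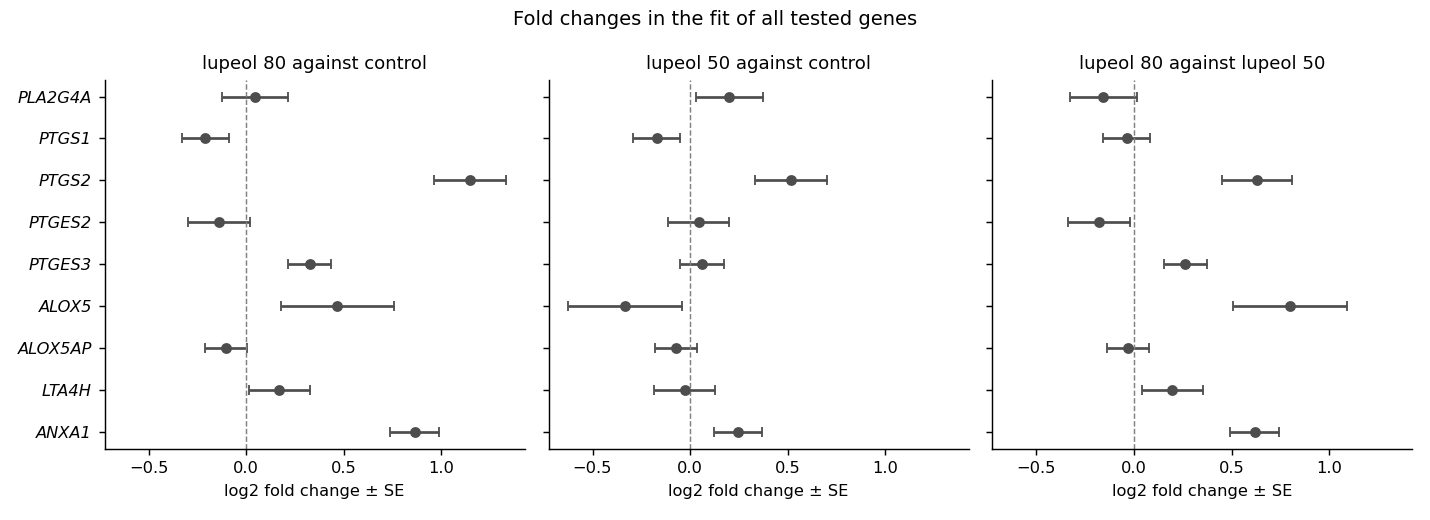
Log2 fold change ± SE (horizontal axes) of the 9 tested genes in the 3 contrasts, from the fit of all 17568 genes. Points are fold changes and bars are SE; in lupeol 80 against control, used in the choice of genes, PTGS2 lies at 1.15 and ANXA1 at 0.86.

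The plot of fold changes sets these contrasts side by side. Among the tested genes of the set other than PTGS2 and ANXA1, none had an edgeR adjusted p under 0.05 in any of them. In lupeol 80 against control, the PTGS2 and ANXA1 log2 values were 1.16 and 0.85 without control 1, 1.11 and 0.80 without control A, and 1.26 and 1.02 without both control B and lupeol 80 library 1. Over 18 alternatives the log2 difference stayed between 1.03 and 1.26 for PTGS2 and between 0.77 and 1.02 for ANXA1. These alternatives reuse the libraries that the choice used, so they describe the size and are no separate support for it. Neither gene passed the adjusted threshold without control 1 or without control A.

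**Figure D4:**
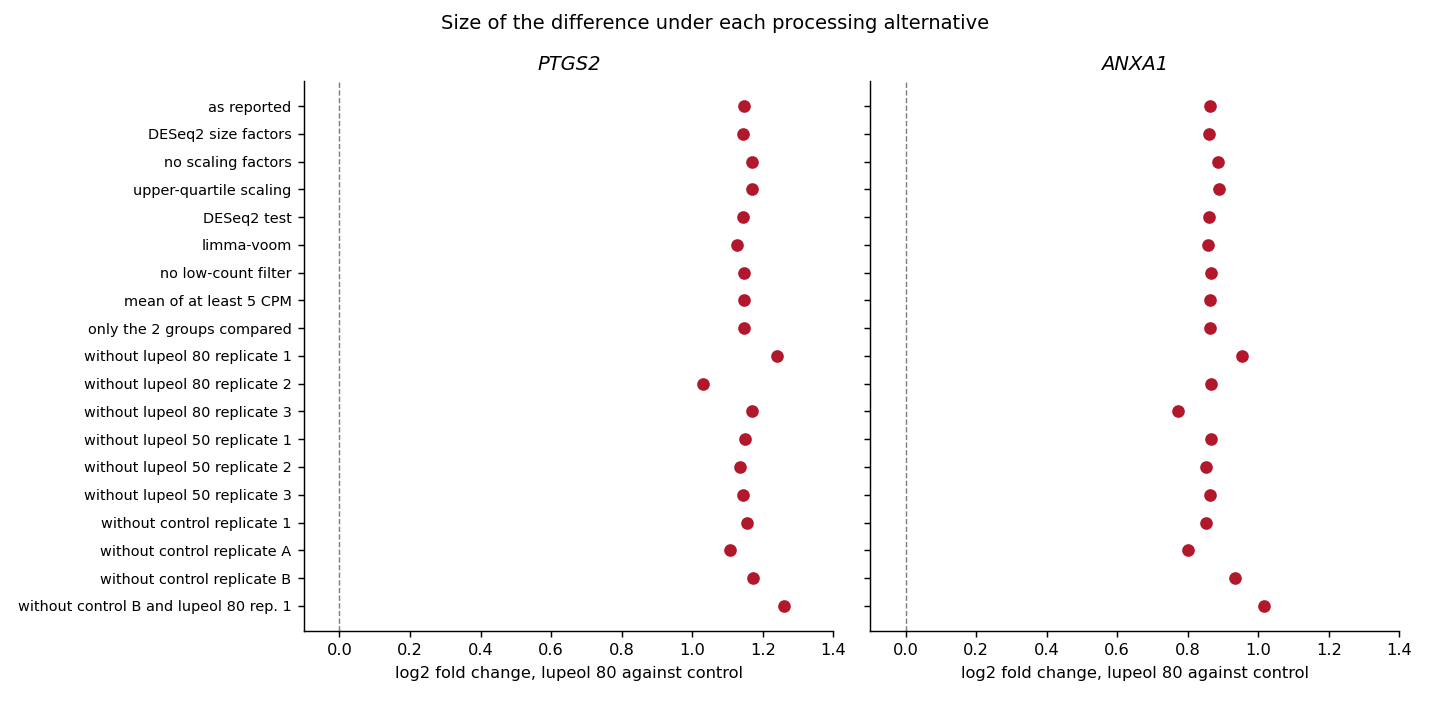
Log2 fold change of lupeol 80 against control (horizontal axes) for PTGS2 and ANXA1 as reported and under each processing alternative. The choice of genes used this contrast. Points are fitted values; they lie between 1.03 and 1.26 for PTGS2 and between 0.77 and 1.02 for ANXA1.

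The plot of alternatives shows these sizes for each scaling, filter, tool and left-out library.

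The surrounding pathway was described with 10 lists of 85 genes, of which 65 passed the low-count filter. No gene of these lists was called in any of the 3 contrasts by edgeR. In lupeol 80 against control, 5 of the 65 lay wholly above and 11 wholly below the controls, beside 11% and 12.9% of all genes. In lupeol 50 against control, 6 lay wholly above and 15 wholly below, beside 9.55% and 9.63% of all genes. The median log2 fold change of the 65 was -0.01 in lupeol 80 against control and 0.02 in lupeol 50 against control.

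**Figure D5:**
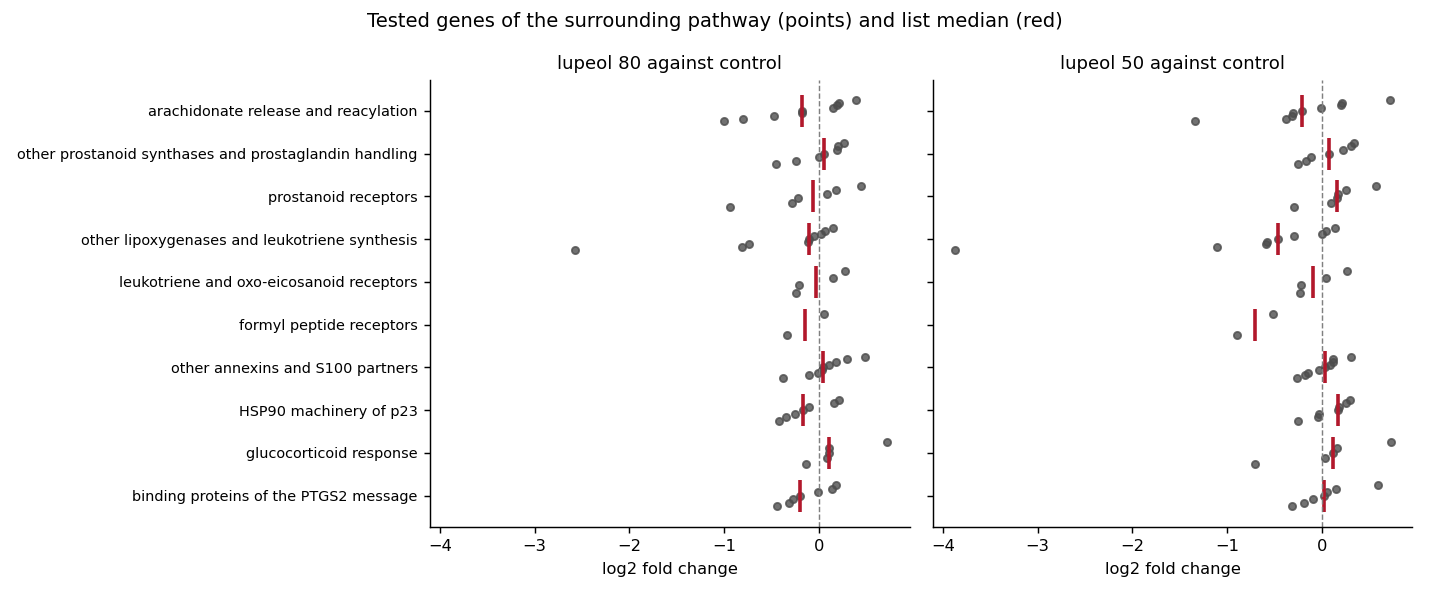
Log2 fold change (horizontal axes) of the tested genes of the 10 surrounding lists, for lupeol 80 against control and lupeol 50 against control. Points are genes and red marks the list median; no point passed an adjusted p of 0.05.

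The plot of the lists places their medians in lupeol 80 against control from -0.201 for binding proteins of the PTGS2 message to 0.104 for the glucocorticoid response. In lupeol 50 against control they ran from -0.706 for the 2 tested formyl peptide receptors and -0.459 for the other lipoxygenases to 0.172 for the HSP90 machinery. Between the doses the formyl peptide receptors stood at 0.561. Of 9 tested genes of arachidonate release and reacylation, 0 lay wholly above and 3 wholly below the controls at lupeol 80. Over all tested genes these shares were 11% and 12.9%. ACSL4, which activates arachidonate for reacylation, averaged 128.0 ± 23.1, 112.6 ± 14.3 and 97.8 ± 10.3 CPM in lupeol 80, lupeol 50 and control libraries (SD, n = 3 each), with a log2 fold change of 0.39 ± 0.14 for lupeol 80 against control (edgeR adjusted p = 0.143). Its lupeol 80 and control libraries overlapped. MBOAT7, a reacylating transferase, averaged 102.8 ± 33.4, 153.4 ± 20.5 and 92.9 ± 31.4 CPM in the same groups.

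Among prostanoid receptors, PTGER4, the EP4 receptor of prostaglandin E2, had the highest mean RPKM and stood at 435.4 ± 49.5, 433.2 ± 66.3 and 385.2 ± 11.7 CPM in lupeol 80, lupeol 50 and control libraries (SD, n = 3 each; edgeR adjusted p = 0.459 for lupeol 80 against control). PTGER2, the EP2 receptor, averaged 8.87 ± 3.07, 8.89 ± 0.861 and 8.31 ± 1.75 CPM. PTGIR, the prostacyclin receptor, came closest to the threshold in the 10 lists and was picked with its values in view. It stood at 4.07, 4.96 and 2.83 CPM in lupeol 80 libraries, 6.77, 6.88 and 5.04 CPM in lupeol 50 libraries and 7.26, 8.41 and 7.18 CPM in control libraries, with a log2 fold change of -0.94 ± 0.23 for lupeol 80 against control (edgeR adjusted p = 0.0507). PLA2G4C, cytosolic phospholipase A2 gamma, also chosen after its values were seen, averaged 10.6 ± 3.59, 14.2 ± 1.41 and 18.5 ± 0.907 CPM in lupeol 80, lupeol 50 and control libraries (log2 fold change -0.80 ± 0.20, edgeR adjusted p = 0.0591 for lupeol 80 against control). Lupeol 80 libraries of both genes lay below every control library, and neither passed.

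Prostaglandin handling genes PTGR1 and CBR1, both reductases, averaged 27.7 ± 1.78 and 14.5 ± 1.55 CPM in lupeol 80, 29.1 ± 1.07 and 15.2 ± 1.12 CPM in lupeol 50 and 27.6 ± 0.600 and 17.1 ± 2.45 CPM in control libraries. The prostaglandin D and prostacyclin synthase genes HPGDS and PTGIS and the degrading dehydrogenase gene HPGD were at 0 in every library. In leukotriene synthesis and its receptors, COTL1, a 5-lipoxygenase-binding protein, MGST2, a leukotriene C4 synthase, LTB4R and CYSLTR1 had adjusted p from 0.339 to 0.854 in lupeol 80 against control (edgeR).

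FPR2, the receptor of annexin A1, was scarce, at 1.58, 1.01 and 2.83 CPM in lupeol 80 libraries, 1.51, 1.56 and 1.71 CPM in lupeol 50 libraries and 2.55, 2.14 and 2.13 CPM in control libraries. Every lupeol 50 library lay below the controls, while lupeol 80 spanned them. The log2 fold change was -0.34 ± 0.34 for lupeol 80 against control (edgeR adjusted p = 0.631) and -0.51 ± 0.35 for lupeol 50 against control (edgeR adjusted p = 0.58). FPR1 averaged 0.639 ± 0.473, 0.330 ± 0.176 and 0.615 ± 0.185 CPM in lupeol 80, lupeol 50 and control libraries (SD, n = 3 each).

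Among the other annexins and S100 partners, 2 of 9 lay wholly above and 1 of 9 wholly below the controls at lupeol 80. The shares of all tested genes were 11% and 12.9%. ANXA5 averaged 278.4 ± 16.8, 280.6 ± 32.0 and 258.2 ± 6.68 CPM, and S100A11, the S100 protein that binds annexin A1, 225.4 ± 21.8, 193.7 ± 12.6 and 198.3 ± 23.5 CPM in lupeol 80, lupeol 50 and control libraries (SD, n = 3 each). ANXA6, chosen after its values were seen, averaged 288.9 ± 16.4, 314.9 ± 31.8 and 376.7 ± 22.2 CPM in the same groups (log2 fold change -0.38 ± 0.11, edgeR adjusted p = 0.0855 for lupeol 80 against control). Its lupeol 80 libraries lay wholly below the controls. The 2 genes of the list wholly above were ANXA2 and ANXA5, on the same side as ANXA1. Their log2 fold changes for lupeol 80 against control were 0.301 ± 0.125 and 0.108 ± 0.112 (edgeR adjusted p = 0.196 and 0.634).

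HSP90AB1 and HSP90AA1, the cytosolic HSP90 genes that p23 serves, had log2 fold changes of 0.16 ± 0.12 and 0.22 ± 0.13 in lupeol 80 against control (edgeR adjusted p = 0.471 and 0.356). Of the 7 genes of that machinery, 0 lay wholly above and 2 wholly below the controls at lupeol 80, beside 11% and 12.9% of all genes. Of the 5 tested genes of the glucocorticoid response, 2 (SGK1 and KLF9) lay wholly above and 0 wholly below the controls at lupeol 80. Their edgeR adjusted p was 0.216 and 0.655. The shares of all genes were again 11% and 12.9%. NR3C1, the glucocorticoid receptor, averaged 103.5 ± 16.2, 108.9 ± 1.98 and 97.7 ± 9.02 CPM in lupeol 80, lupeol 50 and control libraries. TSC22D3, the glucocorticoid-induced leucine zipper gene, stood at 49.5, 51.2 and 52.1 CPM in lupeol 80 libraries, 30.6, 24.3 and 32.5 CPM in lupeol 50 libraries and 59.1, 45.4 and 37.6 CPM in control libraries. Its lupeol 50 libraries were the lowest of the 9, and lupeol 80 against lupeol 50 gave 0.81 ± 0.15 on the log2 scale (edgeR adjusted p = 0.0604). ZFP36 and KHSRP, which bind AU-rich messages such as that of PTGS2, had log2 fold changes of -0.20 ± 0.16 and -0.27 ± 0.13 in lupeol 80 against control (edgeR adjusted p = 0.514 and 0.248).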

How the data were processed

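RNA-seq of 9 THP-1 libraries was analysed from the raw counts per gene that the authors deposited together with exon positions and gene lengths. Bowtie 0.12.2 and the mouse build mm8 are named, per the submitters' processing notes. The table holds human Ensembl genes, and all 35993 gene IDs shared with GENCODE release 29 have the same coordinates there, so positions are on GRCh38. How reads were counted, by strand or across multiple alignments, was not given in the sources used here. All mitochondrial genes stand at 0, and 1 gene with empty values was left out.

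Counts were tested with edgeR 4.0.16 in R 4.3.3 (filterByExpr, 17568 genes; TMM; robust quasi-likelihood F test; Benjamini-Hochberg adjustment over all tested genes, called under 0.05) in 1 fit of all libraries. The SE is the absolute log2 fold change over the square root of F. CPM and RPKM were computed here. DESeq2 1.42.0, limma-voom (limma 3.58.1), other scalings and filters and left-out libraries were alternatives. Totals of 26134744 to 38430299 counts limit precision mainly for genes at a few CPM; without molecular identifiers, reads do not count independent molecules.

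Genes and lists were chosen with earlier results of these data known. All 10 genes are named; of each list, any called gene or else the 2 of highest mean RPKM, and for likeness the 5 of highest Pearson r. Promoter sequences are from RefSeq (GRCh38.p14).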

Additional observations from a re-analysis of the deposited data

How the results depend on the processing

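Of 486 log2 fold changes of the 9 tested genes under alternatives, 485 moved by less than 1 within-group SD, 1 moved further and 19 had another sign than reported. These 19 fell in 10 of the 27 pairs of a gene and a contrast, for PLA2G4A, PTGES2, PTGS1, ALOX5, ALOX5AP and LTA4H, none of which was called as reported; ALOX5 in lupeol 80 against control was among them (-0.09 in 1 of 18 alternatives). As reported, 201 genes were called in lupeol 80 against control, 0 in lupeol 50 against control, 8 between the doses and 41 for any difference. In that sequence the DESeq2 test gave 770, 188, 410 and 1008 genes, no low-count filter 861, 520, 659 and 1423, and leaving out control B with lupeol 80 library 1 gave 860, 913, 25 and 924. In lupeol 80 against control, limma-voom gave 106, a 5 CPM minimum mean 124 and the 2 groups alone 78; the 2 groups alone gave 1 in lupeol 50 against control. In lupeol 80 against lupeol 50, no scaling gave 14, upper-quartile scaling 33, limma-voom 2 and the 5 CPM mean 5. Any difference gave 27 with DESeq2 size factors, 2 with limma-voom and 1 with the 5 CPM mean. Leaving out each library in turn gave 0 to 386, 0 to 427, 1 to 189 and 1 to 654 genes; lupeol 50 against control had 427 without lupeol 50 library 1 and 141 without control B. The cause of these moves was not tested.

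Of the 10 genes described, 2, 0, 0 and 2 were called as reported, and 0 to 2, 0, 0 to 1 and 0 to 2 with a library left out. The 2 called as reported were PTGS2 and ANXA1, whose lupeol 80 and control levels were known at the choice. Nothing is read from their calls. In lupeol 80 against lupeol 50 the count was 1 with no scaling, with upper-quartile scaling and without control B and lupeol 80 library 1, and 2 with the DESeq2 test and with no low-count filter. In any difference it was 0 with limma-voom and with the 5 CPM mean. ALOX5 was called in 1 of 18 alternatives of lupeol 80 against lupeol 50 (no low-count filter). That setting also called ALOX5 for any difference, beside PTGS2 and ANXA1, and was the only 1 of 17 alternatives to do so. No paired analysis was possible because the replicate numbers follow accession order only and 2 control columns carry no number. PTGES was left out by the low-count filter and so was not tested in the reported fit.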

Other observations

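Over the 10653 tested genes with a symbol and a mean of at least 5 CPM, the genes whose log2 CPM followed PTGS2 most closely across the 9 libraries were CXCL8 (Pearson r = 0.950), ANXA1 (0.947), C1orf162 (0.947), WBP11 (0.939) and USP14 (0.934). CXCL8, the interleukin-8 gene, averaged 407.0, 229.2 and 108.8 CPM in lupeol 80, lupeol 50 and control libraries. Its log2 fold change was 1.07 ± 0.41 for lupeol 50 against control and 0.83 ± 0.41 for lupeol 80 against lupeol 50. Lupeol 80 against control gave 1.90 ± 0.42. None of these differences passed the adjusted threshold in edgeR.

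The genes that followed ANXA1 most closely were ZNF121 (0.974), GNG5 (0.974), ANAPC5 (0.961), MDM4 (0.958) and STK17B (0.952). STK17B, a death-associated protein kinase gene, averaged 112.3, 75.3 and 71.5 CPM in lupeol 80, lupeol 50 and control libraries. Its log2 fold change for lupeol 80 against lupeol 50 was 0.58 ± 0.11 and did not pass the adjusted threshold in edgeR. For lupeol 80 against control it was 0.65 ± 0.11 and passed. GNG5, a G protein gamma subunit gene, averaged 33.8, 25.7 and 21.7 CPM in the same groups. GNG5 and USP14 also passed in lupeol 80 against control, and nothing is read from these calls or that of STK17B. Within the set itself, ANXA1 and PTGES3 had r = 0.872 and PTGS1 and ALOX5AP r = 0.850. These values describe 9 libraries that share the 3 groups, the scaling and the sequencing depth. Genes named for their likeness to PTGS2 or ANXA1 were picked from these same libraries. Their group differences are therefore a description and no test.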
